A study of Rattus norvegicus with 13 samples.

Results

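Hepatic RNA of rats on a reduced energy supply without ethanol, the group labelled TEN-160, was compared with that of rats on the full energy supply without ethanol, TEN-220. All animals were time-mated female Sprague Dawley rats. TEN-220 received a diet with no ethanol that supplied 220 kcal per day for each kg of body mass raised to the power 0.75, and TEN-160 was the undernourished control, with 160 kcal on the same scale. Each group had 3 arrays, so the comparison used 6 of the 13 arrays of the series, chosen by their titles. The other 7 arrays were from rats given 12 g ethanol per kg per day at 220 kcal (EtOH-220, 3 arrays) or at 160 kcal (EtOH-160, 4 arrays), and entered the same model. RNA was hybridised to one-colour Affymetrix arrays on which a gene may have several probe sets, each a group of short probes. Whether an array held RNA of 1 animal or of a pool is not in the labels, nor is the day of gestation, so the p-values measure only the spread between these samples. Of 8740 probe sets that were not controls, 5244 were bright enough to be tested, and 4309 of these named exactly 1 gene, for 3130 genes in all.

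The liver turns spare dietary carbohydrate into fat under insulin, and the enzymes of this route are transcribed at high rates in the fed state. When energy runs short, insulin falls, glucagon and glucocorticoids rise, and the liver releases glucose, burns fatty acids and makes ketone bodies. It also secretes insulin-like growth factors and their binding proteins, which carry the nutritional state to other tissues, and in pregnancy it does so for the growth of the litter as well.

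The arrays of the comparison differed in more than diet. As deposited, TEN-220-1 had a trimmed mean signal of 133, against 501 on the other arrays, and it was brought to the common distribution before any comparison. On the first principal component of the 13 arrays, which held 31.1% of the variance, the 3 TEN-160 arrays lay between 31.0 and 43.1 and the others between -13.6 and -2.98. The ratio of the 2 ends of BioDn, a bacterial control transcript added to each sample, lay at 0.422 to 0.497 on the TEN-160 arrays, against 0.133 to 0.181 on the TEN-220 arrays. The GAPDH 3′/5′ ratio, which rises as RNA degrades, lay at 1.026 to 1.242 on the TEN-160 arrays against 1.525 to 2.323 on those of TEN-220, but at 1.038 to 1.47 on the EtOH-220 arrays, and the actin 3′/5′ ratios overlapped. Diet and these differences between arrays cannot be told apart in any result below. The hepatocyte marker list was well represented, with 0 of its 11 measured genes below background in either group and a summed signal of 218600 to 226100 on the TEN-220 arrays and 203100 to 211900 on the TEN-160 arrays.

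The 2 highest rises of the comparison were in probe sets that the array annotation pairs with ribosomal RNA genes and several others, a choice made after the values were seen. The first gave 87.73, 158.7 and 73.61 on the TEN-220 arrays and 9157, 13130 and 11400 on the TEN-160 arrays. The second gave 539.5, 256.9 and 220.0 on the TEN-220 arrays and 19110, 21750 and 22330 on the TEN-160 arrays. Neither pair of groups came near to overlapping. The changes were 6.78 (SE 0.72, adjusted p = 0.000142) and 6.07 (SE 0.82, adjusted p = 0.000399) on the log2 scale. Among the ethanol-fed rats the same probe sets read 2739 and 5431 on EtOH-220-1, 654 and 1390 on EtOH-220-3, and at most 177.8 and 955.7 on the EtOH-160 arrays. Of 6 probe sets paired with ribosomal RNA genes 5 were tested. The other was too dim, with 50.43, 74.57 and 33.29 on the TEN-220 arrays and 45.43, 14.13 and 11.56 on the TEN-160 arrays, which overlapped. All 5 tested had groups that did not overlap, beside 36.5% of all tested probe sets. Their changes were 1.39 to 6.78, and 4 were called higher. The call of 1 of them (1.39) was lost without any TEN-220 array, TEN-160-2 or TEN-160-3, and that of another (1.55) without TEN-220-1, TEN-220-2, TEN-160-1 or TEN-160-3. The part of these signals, and of the control ratios, in the gene changes below was not tested.

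Undernutrition without ethanol went with many changes in both directions. Of the 5244 probe sets 927 (17.7%) were called at an adjusted p under 0.05, from limma with Benjamini-Hochberg adjustment, 410 higher in TEN-160 (7.82%) and 517 lower (9.86%). Changes are differences of mean log2 signal, TEN-160 minus TEN-220, so that 1 log2 unit is a factor of 2, and SE is the standard error that the model gives. The median SE was 0.25. The share called rose with signal, from 8.96% of the dimmest of 5 equal classes to 25.6% of the brightest. The groups did not overlap in 1913 probe sets (36.5%), among them 905 of those called. Changes of at least 1 were called in 213 higher and 254 lower probe sets, and of at least 3 in 6 and 6.

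The calls depended on single arrays of the control group more than on the others. The count was 528 without TEN-220-1 and 547 without TEN-220-2, and 700 to 1061 when any other array was left out. Of the 927 calls 426 (189 higher and 237 lower) were kept without each of the 13 arrays in turn. Of these, 405 (173 higher and 232 lower) were kept under both other scalings of the arrays as well, on the median of the log2 signals and on the trimmed mean of TEN-220-1 alone. The first of these scalings moved the median change of all probe sets from -0.03 to -0.16 and the split of calls from 410 higher and 517 lower to 263 higher and 833 lower. Calls of single probe sets named below held without each array and under both scalings unless arrays or a scaling are given. The values of a group are listed in the order of its array numbers.

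Genes of fat synthesis were lower in the undernourished group. Of 13 measured genes of a fat synthesis list, each taken by its brightest probe set, 6 were called lower and 0 higher, or 46.2%, beside 16.2% of all 3130 genes (6.42% higher and 9.74% lower). The median change of the list was -0.91, beside -0.04 over all genes. Its count of lower calls was 5 or 6 without any 1 array, and its median lay between -1.16 and -0.60. Fasn, fatty acid synthase, which builds palmitate, had 2 probe sets. The brighter gave signals of 6282, 3369 and 5687 on the TEN-220 arrays and 921.9, 1385 and 949.2 on the TEN-160 arrays, and fell by 2.21 log2 units (SE 0.31, adjusted p = 0.000453). The other gave 7218, 6033 and 4861 on the TEN-220 arrays and 731.3, 1170 and 684.2 on the TEN-160 arrays, and fell by 2.83 log2 units (SE 0.36, adjusted p = 0.000281). On both, the highest TEN-160 array lay below the lowest TEN-220 array. Acly makes the cytosolic acetyl-CoA from which fatty acids are built, and its brightest probe set gave 19530, 21750 and 14380 on the TEN-220 arrays and 5408, 3659 and 5296 on the TEN-160 arrays. It fell by 1.96 log2 units (SE 0.32, adjusted p = 0.00128), while its 2 dimmer probe sets differed by -1.04 (SE 0.35, adjusted p = 0.0533) and -0.55 (SE 0.31, adjusted p = 0.241), short of a call. Scd, a desaturase that puts the double bond into stearate, fell by 1.55 log2 units (SE 0.24, adjusted p = 0.000853) on its brighter probe set, with 18000, 16690 and 11400 on the TEN-220 arrays and 5687, 4955 and 4811 on the TEN-160 arrays. The dimmer Scd probe set differed by 0.39 (SE 0.32, adjusted p = 0.433). A probe set paired with 4 genes of the stearoyl-CoA desaturase family, chosen after its values were seen, gave 888.6, 554.4 and 575.5 on the TEN-220 arrays and 95.92, 116.9 and 46.99 on the TEN-160 arrays and fell by 3.02 log2 units (SE 0.43, adjusted p = 0.000531). Srebf1 encodes the transcription factor that drives many of these enzymes. Its signals were 914.5, 852.3 and 992.6 on the TEN-220 arrays and 338.4, 400.2 and 225.3 on the TEN-160 arrays, without overlap, and it fell by 1.56 log2 units (SE 0.33, adjusted p = 0.00603).

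Called lower as well were 3 genes that handle stored fat. Pnpla3, a lipid droplet protein of the fat synthesis list, gave 7078, 5796 and 2409 on the TEN-220 arrays and 391.5, 401.2 and 217.2 on the TEN-160 arrays. It fell by 3.83 log2 units (SE 0.53, adjusted p = 0.000448), the largest fall among probe sets with both groups above background. Plin2 coats lipid droplets, and its abundance follows the amount of stored fat. Its brighter probe set gave 10180, 12460 and 7011 on the TEN-220 arrays and 2200, 2080 and 2698 on the TEN-160 arrays and fell by 2.06 log2 units (SE 0.19, adjusted p = 7.39e-05), and its dimmer one fell by 1.73 log2 units (SE 0.30, adjusted p = 0.0018). Mgll, monoacylglycerol lipase, frees the last fatty acid of a glyceride. It gave 603, 454.9 and 479.5 on the TEN-220 arrays and 106, 64.68 and 27.43 on the TEN-160 arrays, and it fell by 3.15 log2 units (SE 0.36, adjusted p = 0.000205). In none of these probe sets did the groups overlap.

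The sequences before the start sites of 2 of these genes are shown as examples of the fat synthesis list, which had the lowest median change of the 29 lists, and were picked after the motif matches were seen. They are from RefSeq on the rat build GRCr8, 250 bases up to the start, 5′ to 3′ on the gene's strand. The motifs searched, on both strands, were CCAAT, the E-box CACGTG, the cAMP response element TGACGTCA, the insulin response core CAAAACA and the nuclear receptor core AGGTCA. Capitals mark every match.
Pnpla3, chr7:117173278-117173527, plus strand: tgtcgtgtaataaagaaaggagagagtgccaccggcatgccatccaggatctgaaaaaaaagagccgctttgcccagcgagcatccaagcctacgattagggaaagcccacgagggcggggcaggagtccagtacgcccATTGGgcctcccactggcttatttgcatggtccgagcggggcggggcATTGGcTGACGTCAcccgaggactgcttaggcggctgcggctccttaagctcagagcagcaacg
Acly, chr10:85963632-85963881, minus strand: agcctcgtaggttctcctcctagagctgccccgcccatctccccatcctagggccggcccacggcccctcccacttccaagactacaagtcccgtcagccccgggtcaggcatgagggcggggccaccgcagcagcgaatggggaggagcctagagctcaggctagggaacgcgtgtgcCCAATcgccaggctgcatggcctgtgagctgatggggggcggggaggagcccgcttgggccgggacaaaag
Pnpla3 has CCAAT on the other strand, read as ATTGG, at -111 and at -64 from the start, and TGACGTCA at -58. Acly has CCAAT at -71. Of 27457 promoter windows of the same length 34.3% hold CCAAT, 1.7% TGACGTCA and 5.79% CACGTG. Of the other called genes of the list, the windows of Srebf1 and Slc25a1 hold CCAAT on the other strand at -169 and -151, that of Scd holds none of the motifs, and Fasn is not in the table used. These matches describe the letters of the windows only.

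Genes of the fasting response moved in both directions. Igfbp1 is a secreted binding protein of insulin-like growth factors whose transcription insulin holds down. It gave 87.73, 290.7 and 257 on the TEN-220 arrays and 1421, 1330 and 2490 on the TEN-160 arrays, and it rose by 3.16 log2 units (SE 0.59, adjusted p = 0.00282). Pck1, which commits carbon to new glucose, gave 207.4, 450.5 and 1373 on the TEN-220 arrays and 2517, 2118 and 4148 on the TEN-160 arrays. The groups did not overlap, but the TEN-220 arrays were spread widely. Pck1 rose by 2.48 log2 units (SE 0.63, adjusted p = 0.0163), a call lost without TEN-220-1, TEN-220-2 or TEN-160-3 (adjusted p up to 0.0775, changes of 1.84 to 3.21). Cpt1a, the carnitine palmitoyltransferase that admits fatty acids to mitochondria, gave 538.4, 726.1 and 593.2 on the TEN-220 arrays and 2108, 2967 and 2766 on the TEN-160 arrays. It rose by 2.07 log2 units (SE 0.32, adjusted p = 0.000808). Prkaa2, a catalytic subunit of the energy sensor AMP-activated protein kinase, gave 66.82, 63.88 and 63.37 on the TEN-220 arrays and 184.9, 345.7 and 280.3 on the TEN-160 arrays, with the control values close together. It rose by 2.02 log2 units (SE 0.48, adjusted p = 0.0112). Bdh1 interconverts the 2 main ketone bodies. It rose by 1.40 log2 units (SE 0.34, adjusted p = 0.0122), a call lost without TEN-220-1 (adjusted p up to 0.0608, changes of 1.10 to 1.61).

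Igfbp1 and Pck1 are the fasting genes with the largest rises, and their start regions are shown in the same way as those of the fat genes.
Igfbp1, chr14:86261027-86261276, plus strand: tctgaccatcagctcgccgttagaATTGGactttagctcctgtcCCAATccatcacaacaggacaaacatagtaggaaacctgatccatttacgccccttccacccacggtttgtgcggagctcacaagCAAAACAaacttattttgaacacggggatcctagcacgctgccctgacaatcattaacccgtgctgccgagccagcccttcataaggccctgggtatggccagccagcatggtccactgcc
Pck1, chr3:182348322-182348571, plus strand: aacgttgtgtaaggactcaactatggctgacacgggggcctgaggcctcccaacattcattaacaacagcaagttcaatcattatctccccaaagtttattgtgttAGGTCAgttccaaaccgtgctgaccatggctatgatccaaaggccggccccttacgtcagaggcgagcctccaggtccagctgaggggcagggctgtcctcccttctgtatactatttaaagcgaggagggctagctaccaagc
The Igfbp1 window holds the insulin response core CAAAACA at -121, found in 5.46% of the 27457 windows, and CCAAT at -206 and, on the other strand, at -226. The Pck1 window holds AGGTCA at -144, found in 13.7%. The windows of Cebpb, Slc37a4 and Cebpa, which were called lower in the same list, hold none of the motifs.

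Other genes of the same routes fell or did not pass the test. Of 28 measured genes of fatty acid oxidation and ketone body formation 3 were called higher and 4 lower (25.0%), with a median change of 0.05. Of 20 genes of glucose production and fasting response 3 were called higher and 4 lower (35.0%), with a median of -0.01. Over all genes 16.2% were called, 6.42% higher and 9.74% lower, with a median of -0.04. Without TEN-220-1 only 1 gene of each list was called in each direction. Hadh, an enzyme of the fatty acid oxidation cycle, gave 128.6, 143.3 and 114.9 on the TEN-220 arrays and 13.53, 69.73 and 22.65 on the TEN-160 arrays. It fell by 2.21 log2 units (SE 0.47, adjusted p = 0.00686), and with TEN-160 below the background signal of 44.0 its fall was at least 2.92-fold. Cebpb, a transcription factor of fasting and inflammation, fell by 1.17 log2 units (SE 0.15, adjusted p = 0.000281) on its brighter probe set, with 1846, 1960 and 1666 on the TEN-220 arrays and 872.2, 786.4 and 779.9 on the TEN-160 arrays. Its dimmer probe set fell by 1.97 log2 units (SE 0.35, adjusted p = 0.00204). The amino acid enzymes Tat and Sds, classical fasting genes, did not pass. Tat differed by -0.14 (SE 0.24, adjusted p = 0.731), and the 2 Sds probe sets by 1.58 (SE 0.66, adjusted p = 0.116) and 1.27 (SE 0.63, adjusted p = 0.184). Cyp4a1, a target of the fatty acid receptor PPARα, differed by -0.20, -0.10 and 0.20 on its 3 probe sets (adjusted p = 0.618, 0.784 and 0.69). Ppara itself differed by 0.11 (SE 0.40, adjusted p = 0.882). The groups of Tat, Cyp4a1 and Ppara overlapped.

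**Figure D1:**
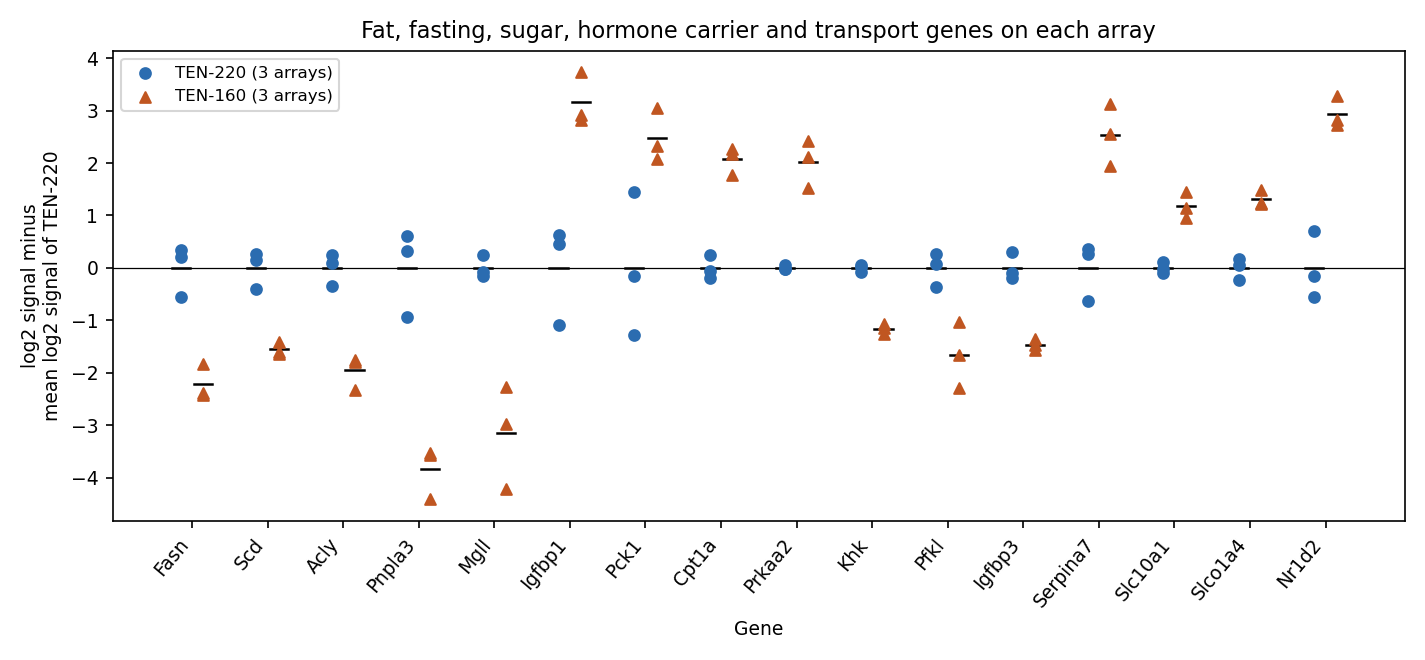
Signals of 16 genes of fat, fasting, sugar, hormone and transport routes on each of the 3 TEN-220 and 3 TEN-160 arrays, as log2 signal minus the gene's mean log2 signal in TEN-220. Bars are group means, and Acly, Scd, Fasn and Igfbp3 are shown by their brightest probe set. The groups of every gene shown lie apart, and the TEN-220 arrays of Pck1 and Igfbp1 spread more than those of the other genes.

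Some enzymes that use sugars were called lower. Of 12 measured genes of glycolysis and glycogen 3 were called lower and 1 higher (33.3%, beside 9.74% lower and 6.42% higher of all genes). Their median change was -0.19, between -0.29 and -0.01 without any 1 array other than TEN-160-3, and 0.13 without that one, and 3 were called lower when any 1 array was left out. The higher call was lost without any 1 TEN-220 array, TEN-160-2 or TEN-160-3. Khk, which phosphorylates fructose, gave 3246, 3542 and 3486 on the TEN-220 arrays and 1550, 1425 and 1634 on the TEN-160 arrays and fell by 1.16 log2 units (SE 0.17, adjusted p = 0.000664). Pfkl, the liver phosphofructokinase, gave 294.3, 335.6 and 217.3 on the TEN-220 arrays and 88.16, 136 and 56.55 on the TEN-160 arrays and fell by 1.66 log2 units (SE 0.28, adjusted p = 0.00158). Pgam1, phosphoglycerate mutase, fell by 0.61 log2 units (SE 0.13, adjusted p = 0.00601) on the brightest of 3 probe sets, while the others differed by -0.17 and -0.15 and were not called. Sord turns sorbitol into fructose, and both of its probe sets fell. The brighter gave 4795, 4711 and 5711 on the TEN-220 arrays and 2918, 2038 and 3193 on the TEN-160 arrays and fell by 0.92 log2 units (SE 0.21, adjusted p = 0.00831). The dimmer fell by 1.21 log2 units (SE 0.22, adjusted p = 0.00226). Pklr, liver pyruvate kinase, gave 873.9, 699.6 and 497.2 on the TEN-220 arrays and 738.3, 751.9 and 234.4 on the TEN-160 arrays. Its groups overlapped, and it differed by -0.41 (SE 0.40, adjusted p = 0.523).

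Genes of the growth hormone and insulin-like growth factor axis changed unevenly. Of 18 measured genes 4 were called higher and 2 lower (33.3%, beside 16.2% of all genes), with a median change of 0.01, and 2 were called higher without TEN-160-1 or TEN-160-2. Beside Igfbp1, which rose, Igfbp3, the main carrier of these factors in blood, fell by 1.47 log2 units (SE 0.19, adjusted p = 0.000294) on its brighter probe set, with 425.3, 599.7 and 457.5 on the TEN-220 arrays and 164.1, 176.1 and 190.6 on the TEN-160 arrays. The dimmer Igfbp3 probe set pointed the other way, at 0.38 (SE 0.23, adjusted p = 0.267), and was not called. Igfals, the subunit that stabilises the circulating complex, gave 3187, 3405 and 3204 on the TEN-220 arrays and 1555, 1752 and 1556 on the TEN-160 arrays on the brightest of 3 probe sets and fell by 1.01 log2 units (SE 0.18, adjusted p = 0.00207). Another Igfals probe set fell by 0.88 log2 units (SE 0.22, adjusted p = 0.0161), a call lost without TEN-220-1 (adjusted p up to 0.0506, changes of -0.93 to -0.85), and the dimmest differed by -0.34 and was not called. Igf1 had 5 tested probe sets. The brightest gave 6444, 7525 and 8476 on the TEN-220 arrays and 8188, 5581 and 9714 on the TEN-160 arrays, with overlap and a change of 0.04 (SE 0.21, adjusted p = 0.922). A dimmer one rose by 1.33 log2 units (SE 0.33, adjusted p = 0.0134), a call lost without TEN-220-1 or TEN-160-1 (adjusted p up to 0.0654, changes of 1.04 to 1.56), and the other 3 differed by 0.13, -0.28 and 0.53 (adjusted p = 0.748, 0.713 and 0.27). Igfbp2 differed by 1.26, 1.21 and 2.22 on 3 probe sets, none of them called (adjusted p = 0.125, 0.307 and 0.0634). Cyp2c12, a cytochrome P450 of the female rat liver that depends on the pattern of growth hormone release, rose on both probe sets. The brighter gave 7966, 7905 and 10250 on the TEN-220 arrays and 16180, 15210 and 13320 on the TEN-160 arrays and rose by 0.78 log2 units (SE 0.15, adjusted p = 0.00283), and the dimmer rose by 0.99 log2 units (SE 0.23, adjusted p = 0.00985).

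Several uptake carriers of the hepatocyte were called higher. Of 17 measured genes of bile acid formation and transport 4 were called higher and 1 lower (29.4%, beside 6.42% higher and 9.74% lower of all genes), with a median change of 0.38, which was 0.10 on median-centred values, and without TEN-220-1 only 2 were called higher. Slc10a1, the sodium-driven bile acid carrier, gave 2744, 2517 and 2388 on the TEN-220 arrays and 4908, 5645 and 6972 on the TEN-160 arrays and rose by 1.18 log2 units (SE 0.18, adjusted p = 0.000777). Slco1a4, an organic anion carrier, gave 445.9, 410.5 and 339.9 on the TEN-220 arrays and 937.2, 1111 and 923.8 on the TEN-160 arrays and rose by 1.32 log2 units (SE 0.29, adjusted p = 0.0082). Cyp7a1, the rate-limiting enzyme of bile acid synthesis, gave 159.2, 415.8 and 877.9 on the TEN-220 arrays and 572.3, 951.1 and 565.3 on the TEN-160 arrays. Its groups overlapped, with a change of 0.80 (SE 0.45, adjusted p = 0.246). Slc4a2 exchanges chloride for bicarbonate and is also used as a bile duct marker. Its brighter probe set gave 381.7, 412.3 and 376.8 on the TEN-220 arrays and 189.1, 214.5 and 207.4 on the TEN-160 arrays and fell by 0.94 log2 units (SE 0.19, adjusted p = 0.00464), and its dimmer one fell by 2.75 log2 units (SE 0.41, adjusted p = 0.000735). The summed signal of the 7 bile duct markers on the array ranged from 785.4 to 869.7 on the TEN-220 arrays and from 637.3 to 752.0 on the TEN-160 arrays, and 2 and 3 of them lay below background. Slc4a2 is itself 1 of these 7 and enters the sum. Of 4 tested bile duct markers 2 had positive and 2 negative changes, with a median of 0.12. Slc4a2 was the 1 called (25.0%, beside 16.2% of all genes). The part of bile duct cells in the fall of Slc4a2 was not tested, and in whole liver fewer cells of a type and less RNA per cell cannot be told apart.

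Plasma proteins made by the liver moved in both directions. Of 22 measured acute phase genes 2 were called higher and 1 lower (13.6%). Of 18 genes of coagulation and protease inhibitors 3 were called higher and 0 lower (16.7%). Of 17 genes of apolipoproteins and lipoprotein enzymes 2 were called higher and 1 lower (17.6%). These shares lay near the 16.2% of all genes. Serpina7, the thyroxine-binding globulin, gave 131.4, 263.8 and 247.1 on the TEN-220 arrays and 1198, 1788 and 784.2 on the TEN-160 arrays and rose by 2.54 log2 units (SE 0.45, adjusted p = 0.00209). Mbl1, a mannose-binding lectin of innate immunity, gave 1947, 2062 and 2200 on the TEN-220 arrays and 5826, 4936 and 4689 on the TEN-160 arrays on the brighter of 2 probe sets and rose by 1.31 log2 units (SE 0.20, adjusted p = 0.000914), while the dimmer differed by 0.45 and was not called. Ces1d, a carboxylesterase that acts on lipids and is not counted as a plasma protein here, gave 893.5, 736.3 and 876.1 on the TEN-220 arrays and 3506, 3969 and 3142 on the TEN-160 arrays. It rose by 2.08 log2 units (SE 0.32, adjusted p = 0.000884). Apoc3 slows the breakdown of triglyceride-rich lipoproteins. It fell by 0.54 log2 units (SE 0.12, adjusted p = 0.00715) on the brightest of 3 probe sets, a call lost with the trimmed-mean scaling, and the others differed by -0.06 and -0.05, not called. Rbp4, the carrier of retinol, fell by 0.52 log2 units (SE 0.13, adjusted p = 0.013) on the brightest of 3, a call lost with the same scaling and without TEN-220-1 (adjusted p up to 0.0505, changes of -0.55 to -0.47). The next Rbp4 probe set pointed the other way, at 0.48 (SE 0.18, adjusted p = 0.0859), uncalled here but called with the trimmed-mean scaling. The dimmest fell by 1.02 log2 units (SE 0.32, adjusted p = 0.0407), a call lost without TEN-220-1, TEN-220-2, TEN-220-3, EtOH-220-2, EtOH-220-3, TEN-160-1, EtOH-160-3 or EtOH-160-4 (adjusted p up to 0.104, changes of -1.40 to -0.51). The brightest probe set of albumin gave 37850, 38730 and 37850 on the TEN-220 arrays and 34600, 35640 and 33600 on the TEN-160 arrays. Its groups did not overlap, yet the change of -0.14 (SE 0.08, adjusted p = 0.263) was not called, and nor were those of the other 3, -0.02, -0.20 and 0.39. The 2 probe sets of transthyretin, Ttr, differed by 0.25 (SE 0.11, adjusted p = 0.145) and -0.36 (SE 0.15, adjusted p = 0.111), in opposite directions and not called. Afp, the albumin of fetal liver, fell on both tested probe sets. The dimmer gave 212, 160.1 and 110.5 on the TEN-220 arrays and 27.6, 28.41 and 18.14 on the TEN-160 arrays, a fall of at least 3.53-fold against background, with a change of -2.68 (SE 0.36, adjusted p = 0.000365). The brighter fell by 1.09 log2 units (SE 0.34, adjusted p = 0.0417), with overlapping groups, and its call was lost with the trimmed-mean scaling and without TEN-220-1, TEN-220-3, EtOH-220-2, EtOH-220-3, TEN-160-1, TEN-160-3 or EtOH-160-2 (adjusted p up to 0.17, changes of -1.42 to -0.78). The summed signal of 7 fetal liver markers, of which Afp is 1, ranged from 1012 to 1150 on the TEN-220 arrays and from 725.6 to 798.6 on the TEN-160 arrays. All 4 tested markers of that list had negative changes, with a median of -0.37. Afp, by its brighter probe set, was the 1 called (25.0%, beside 16.2% of all genes).

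The metallothioneins, small proteins that bind zinc and copper and respond to glucocorticoids, gave some of the largest rises. The array has 2 probe sets for them, each paired with several genes, and they were chosen after their values were seen. The one paired with metallothionein genes alone gave 500.1, 334.3 and 3520 on the TEN-220 arrays and 18630, 8824 and 19530 on the TEN-160 arrays. It rose by 4.14 log2 units (SE 0.68, adjusted p = 0.00135). The one paired with 1 further gene as well gave 2158, 1430 and 5486 on the TEN-220 arrays and 17450, 17230 and 15400 on the TEN-160 arrays and rose by 2.70 (SE 0.39, adjusted p = 0.000699). TEN-220-3 was the highest control array on both and still lay below every TEN-160 array. Of 15 glucocorticoid targets named alone by a probe set, 2 were called higher and 3 lower (33.3%, beside 16.2% of all genes), and 0 higher without TEN-220-1, TEN-220-2 or TEN-160-3.

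Enzymes of sulfur and tryptophan metabolism were called both ways. Haao, an enzyme of the route from tryptophan to NAD, gave 3969, 3506 and 3884 on the TEN-220 arrays and 1988, 2205 and 2298 on the TEN-160 arrays on the brighter of 2 probe sets and fell by 0.81 log2 units (SE 0.14, adjusted p = 0.00142), while the dimmer differed by -0.07 (SE 0.14, adjusted p = 0.778) and was not called. Cdo1 oxidises cysteine, and its dimmer probe set gave 2922, 3061 and 2615 on the TEN-220 arrays and 4293, 5959 and 5893 on the TEN-160 arrays and rose by 0.90 log2 units (SE 0.21, adjusted p = 0.0116). The brighter Cdo1 probe set rose by 0.46 log2 units (SE 0.14, adjusted p = 0.0334), a call lost with median-centred values and without TEN-220-1, TEN-220-2, TEN-220-3, TEN-160-1, TEN-160-2 or TEN-160-3 (adjusted p up to 0.091, changes of 0.43 to 0.48). Cth makes cysteine from cystathionine. Its dimmer probe set rose by 1.04 log2 units (SE 0.18, adjusted p = 0.00177), and its brighter one rose by 0.77 log2 units (SE 0.23, adjusted p = 0.0357), a call lost with median-centred values and without TEN-220-2, TEN-220-3, TEN-160-1 or TEN-160-2 (adjusted p up to 0.117, changes of 0.68 to 0.93). Of 24 measured genes of the urea cycle and amino acid breakdown 1 was called higher and 3 lower, or 16.7%, near the 16.2% of all genes. Without any 1 of the 6 arrays compared 0 were called higher, and without TEN-220-1 or TEN-160-3 only 1 was called lower.

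Heat shock genes were called in 1 direction. Of 15 measured genes of cytosolic and mitochondrial heat shock 5 were called lower (33.3%) and 0 higher, beside 9.74% and 6.42% of all genes, and the median change was -0.41 beside -0.04. The count was 1 without TEN-220-2, 2 without TEN-220-1 or TEN-160-3 and 3 without TEN-220-3. The median of the list turned to 0.32 on the values as deposited. There TEN-220-1 is not scaled, and the median change of all probe sets was 0.70. Hsph1, a chaperone of the large heat shock family, gave 630.4, 751 and 644 on the TEN-220 arrays and 318.1, 326.3 and 256.9 on the TEN-160 arrays and fell by 1.17 log2 units (SE 0.26, adjusted p = 0.00787). Hspd1, the mitochondrial chaperonin, fell by 0.64 log2 units (SE 0.17, adjusted p = 0.0186) on its brighter probe set, a call lost without TEN-220-1, TEN-220-2 or TEN-160-3 (adjusted p up to 0.0914, changes of -0.77 to -0.50), and the dimmer differed by 0.08 (SE 0.19, adjusted p = 0.806). Chaperones of the endoplasmic reticulum were called both ways, 2 higher and 1 lower of 17 (17.6%, near the 16.2% of all genes), with 4 higher without TEN-160-3. Hyou1 gave 1734, 2017 and 1972 on the TEN-220 arrays and 683.4, 1088 and 984 on the TEN-160 arrays on the brighter of 2 probe sets and fell by 1.08 log2 units (SE 0.21, adjusted p = 0.0033), and the dimmer differed by -0.28, not called. Canx, calnexin, which holds new glycoproteins until they fold, gave 1421, 2205 and 1967 on the TEN-220 arrays and 4094, 3956 and 3857 on the TEN-160 arrays on the brightest of 5 and rose by 1.11 log2 units (SE 0.20, adjusted p = 0.00214). The dimmest Canx probe set rose by 1.28 log2 units (SE 0.28, adjusted p = 0.00709), and the other 3 differed by -0.08, 0.03 and 0.33, not called. Eif2ak3, the kinase that slows translation under stress of this compartment, gave 72.93, 89.65 and 101 on the TEN-220 arrays and 253.3, 198.5 and 163.1 on the TEN-160 arrays and rose by 1.21 log2 units (SE 0.22, adjusted p = 0.00259).

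Genes of the circadian clock vary with the hour of the day, and the hour of sampling is not in the labels. Of 10 measured genes 3 were called higher and 1 lower (4 of 10, beside 16.2% of all genes), and 2 higher without any 1 of the 6 arrays compared. The lower call was lost without TEN-220-1, TEN-220-2, TEN-160-2, TEN-160-3 or EtOH-160-4. Nr1d2, a repressor of the clock, gave 15.58, 20.67 and 37.13 on the TEN-220 arrays and 151.5, 160.6 and 221.5 on the TEN-160 arrays. With TEN-220 below background its rise was at least 3.98-fold, and it rose by 2.94 log2 units (SE 0.49, adjusted p = 0.00142). Hlf, a transcription factor of clock output, gave 76.87, 69.87 and 87.1 on the TEN-220 arrays and 138.5, 135.8 and 153.7 on the TEN-160 arrays on the brighter of 2 probe sets and rose by 0.88 log2 units (SE 0.21, adjusted p = 0.0103), and the dimmer differed by 0.76, not called. Klf9, a factor induced by thyroid hormone and glucocorticoids, rose by 0.73 log2 units (SE 0.22, adjusted p = 0.0362) on the brighter of 2, a call lost with median-centred values and without TEN-220-1, TEN-220-2, TEN-220-3, TEN-160-1, TEN-160-2 or TEN-160-3 (adjusted p up to 0.115, changes of 0.68 to 0.80), and the dimmer differed by 0.34, not called. Bmal1 differed by -0.37 (SE 0.73, adjusted p = 0.77) and 0.75 (SE 0.42, adjusted p = 0.24) on its 2 probe sets and Dbp by -0.42 (SE 0.96, adjusted p = 0.803), none of them called. Nr1d1 differed by 1.38 and 0.65 on its 2 probe sets, neither of them called.

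Ribosomal protein genes were called in both directions. Of 37 measured genes 7 were called higher and 4 lower (29.7%, beside 6.42% higher and 9.74% lower of all genes), with a median change of -0.01, and 4 were called higher without any 1 TEN-220 array or TEN-160-3. Rpl41 gave 959.7, 697.7 and 1071 on the TEN-220 arrays and 2014, 1982 and 2093 on the TEN-160 arrays and rose by 1.18 log2 units (SE 0.18, adjusted p = 0.000923). Rps6, a target of growth signalling in the small subunit, gave 4744, 4432 and 5128 on the TEN-220 arrays and 7674, 8476 and 10470 on the TEN-160 arrays on the brighter of 2 probe sets and rose by 0.89 log2 units (SE 0.14, adjusted p = 0.000932), and the dimmer differed by 0.14, not called. Rps24, on the other hand, gave 506.9, 491.3 and 436.1 on the TEN-220 arrays and 194.2, 241.9 and 211.2 on the TEN-160 arrays and fell by 1.15 log2 units (SE 0.17, adjusted p = 0.000796), and Rpl17 gave 501.4, 527.3 and 317.6 on the TEN-220 arrays and 141.6, 119.5 and 66.69 on the TEN-160 arrays and fell by 2.07 log2 units (SE 0.28, adjusted p = 0.000373). These genes have many near-identical pseudogenes, and a probe set may read several of them. Of 21 measured actin and tubulin genes 3 were called lower and 0 higher, or 14.3%, near the 16.2% of all genes. Actg1, cytoplasmic actin, gave 9372, 9946 and 8139 on the TEN-220 arrays and 3396, 4239 and 4126 on the TEN-160 arrays and fell by 1.23 log2 units (SE 0.22, adjusted p = 0.00217).

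**Figure D2:**
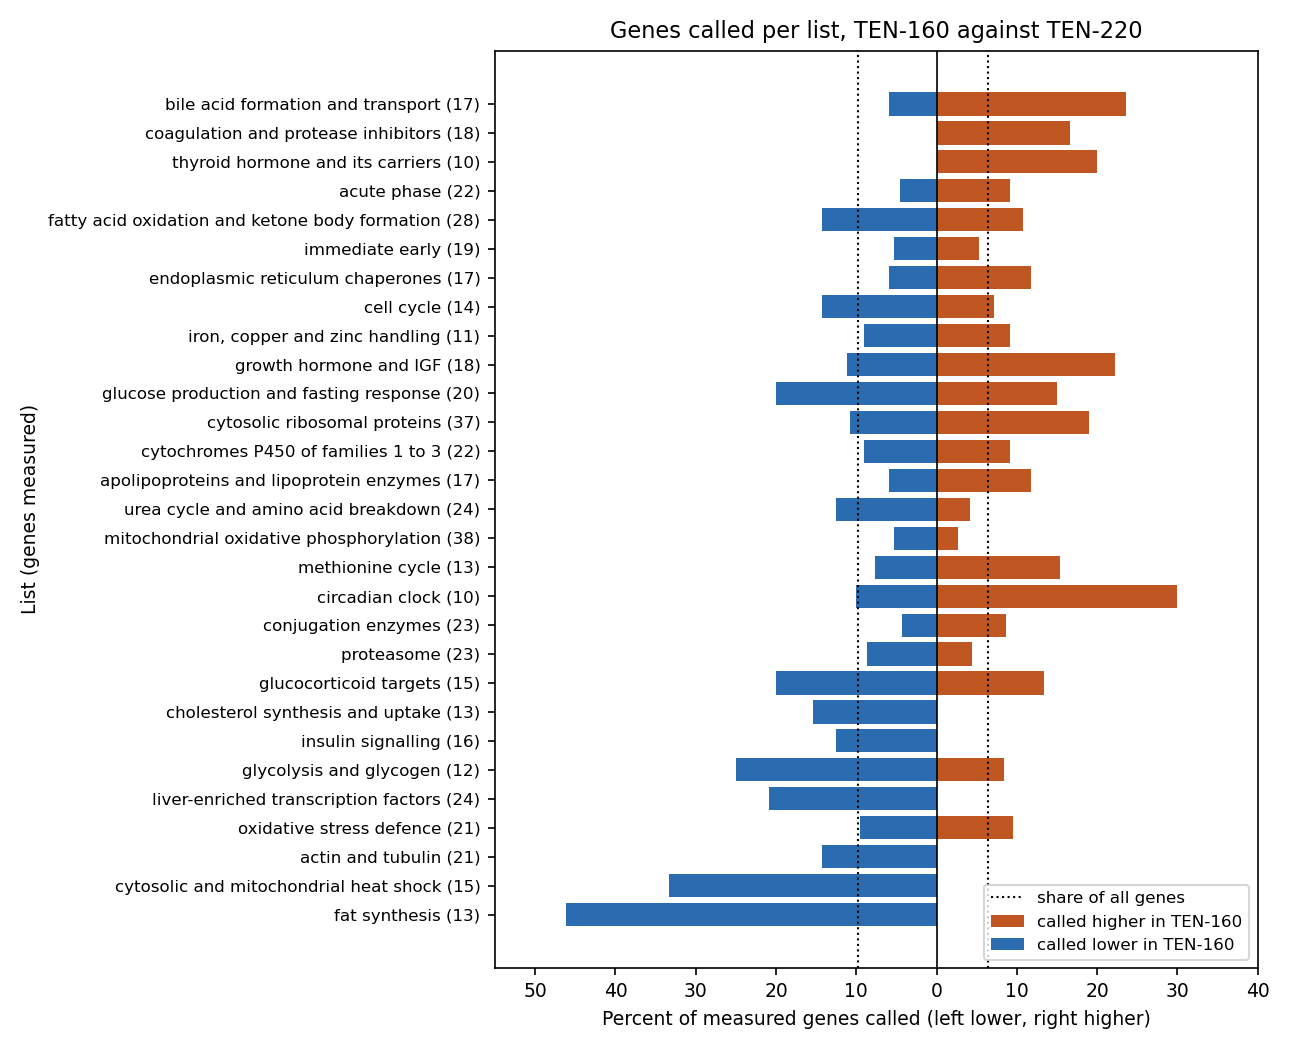
Share of measured genes called higher (right) or lower (left) in TEN-160 for each of 29 gene lists, each gene by its brightest probe set, with lists ordered by median change and the number measured in brackets. Dotted lines mark the shares of all 3130 genes, 6.42% higher and 9.74% lower. The fat synthesis list has the lowest median and the greatest share of lower calls, 46.2%.

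Genes with several probe sets were used to ask how far 2 readings of the same gene agreed. Of the 3130 genes 882 had 2 or more tested probe sets, 2061 in all, of which 20.5% were called. In 488 genes (55.3%) all changes had the same sign. Of 326 genes with any call, 42 (12.9%) were called by all their probe sets in 1 direction, 15 higher and 27 lower, and 10 had calls in opposite directions. The other 274 had some probe sets called and some not, 159 with changes of the same sign and 115 with both signs. Of the 42 genes, 25 had probe sets of a single GenBank sequence, which share template and partly probes, and 17 had probe sets of different sequences. The 42 became 20 without TEN-220-2, 21 without TEN-220-1, 26 without TEN-220-3 and 27 without TEN-160-1, and the 10 became 3 without TEN-220-2, 5 without TEN-220-1 and 16 without EtOH-220-1.

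In 14 of the 42 genes all calls held without each array. They were Cyp2c12, Efna1 and Gsta4, which rose, and Fasn, Plin2, Cebpb, Sord, Slc4a2, Slc35b1, Ptov1, Atp6v0c, Cdc37, Fggy and Tst, which fell. The last 4 lie outside the naming rule and were chosen after their values were seen. Efna1, a membrane-bound ligand of Eph receptors, gave 700.7, 630.8 and 1089 on the TEN-220 arrays and 1605, 1553 and 1793 on the TEN-160 arrays and rose by 1.07 log2 units (SE 0.21, adjusted p = 0.00417) on its brighter probe set. The dimmer gave 248.1, 215.4 and 439.4 on the TEN-220 arrays and 644.7, 839.1 and 817.9 on the TEN-160 arrays and rose by 1.41 log2 units (SE 0.32, adjusted p = 0.00856). TEN-220-3 was the highest control array on both. Gsta4, a glutathione transferase that clears lipid peroxidation products, gave 1653, 1673 and 1446 on the TEN-220 arrays and 2735, 2766 and 2799 on the TEN-160 arrays and rose by 0.80 log2 units (SE 0.16, adjusted p = 0.00457) on its brighter probe set, a call lost with median-centred values. The dimmer rose by 1.37 log2 units (SE 0.21, adjusted p = 0.000886). Slc35b1, a nucleotide transporter of the endoplasmic reticulum, gave 1937, 2211 and 1881 on the TEN-220 arrays and 715.6, 810.1 and 996.3 on the TEN-160 arrays and fell by 1.27 log2 units (SE 0.25, adjusted p = 0.00424), and its dimmer probe set fell by 1.40 log2 units (SE 0.27, adjusted p = 0.0032). Ptov1 gave 2189, 2430 and 2165 on the TEN-220 arrays and 1229, 1226 and 1204 on the TEN-160 arrays and fell by 0.89 log2 units (SE 0.15, adjusted p = 0.00128) on its brighter probe set, and its dimmer one fell by 1.22 log2 units (SE 0.21, adjusted p = 0.00148). Selenop, a selenium carrier of plasma, rose on both, but the call of its dimmer probe set, with a change of 1.12 (SE 0.31, adjusted p = 0.0247), was lost without TEN-220-1, TEN-220-2, TEN-160-2 or TEN-160-3 (adjusted p up to 0.0971, changes of 0.96 to 1.26).

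**Figure D3:**
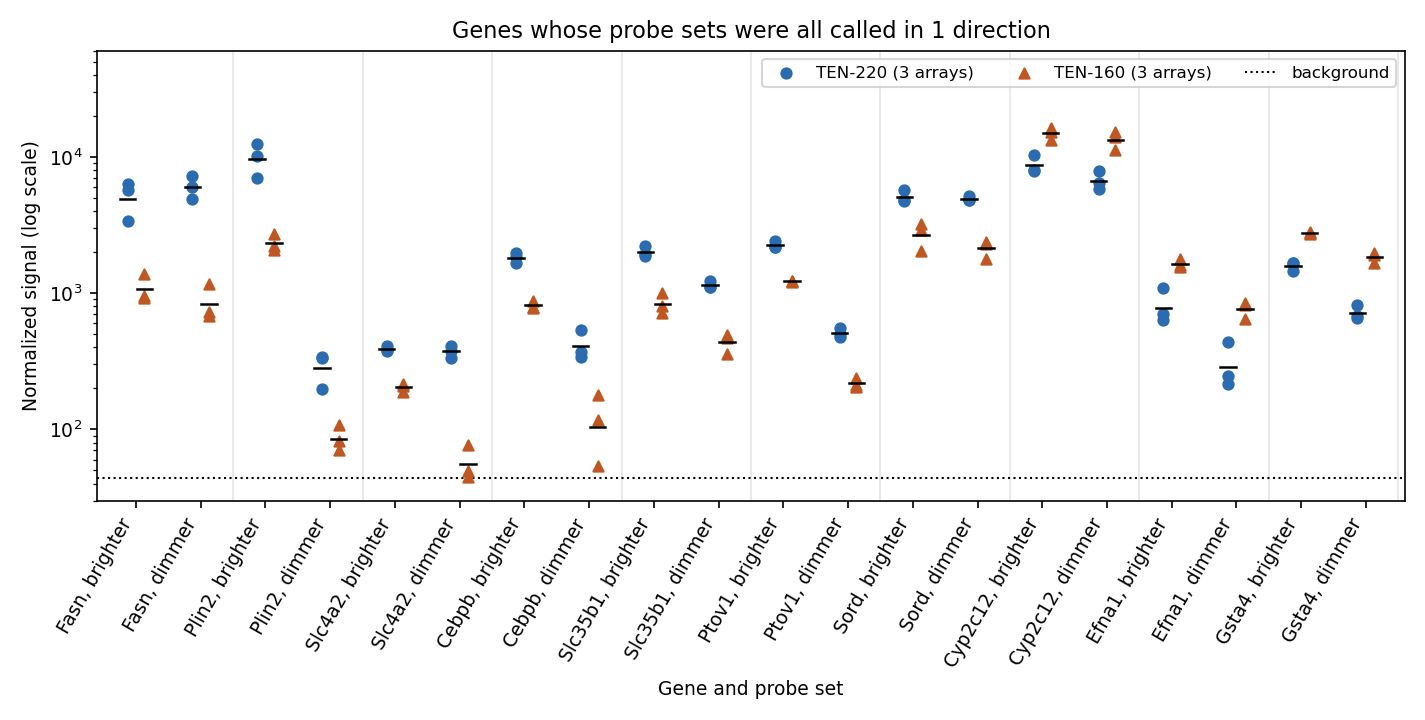
Normalized signal, on a log axis, of both probe sets of 10 genes called in 1 direction throughout, on each of the 3 TEN-220 and 3 TEN-160 arrays. Both probe sets of Gsta4, Slc35b1, Ptov1 and Slc4a2 are of a single GenBank sequence, so they are not separate readings. Bars are geometric means and the dotted line is the background signal of 44.0. In all 20 probe sets shown the triangles of TEN-160 lie wholly below or wholly above the circles of TEN-220.

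Over the 882 genes, the brightest and the next brightest probe set had the same sign in 549 (62.2%, exact binomial 95% interval 59.0 to 65.5, for counting error only). Their changes correlated at Pearson 0.34 and Spearman 0.35 across genes, which share the 6 arrays and are not independent replicates. In the 509 pairs with different sequences the values were 60.7%, 0.31 and 0.31. Where the brightest probe set was called, in 185 genes, the next had the same sign in 73.5%, was called the same way in 53 genes and the opposite way in 5. In the 102 of these genes whose pair had different sequences the values were 65.7%, 22 and 3. Among pairs of different sequences, the Pearson correlation was 0.43 over the 179 whose dimmer member was above a signal of 400, 0.25 over the 226 where it was 100 to 400 and 0.25 over the 104 where it was up to 100. Between EtOH-160 and EtOH-220, a comparison with few calls that uses none of the same arrays, the pairs of the 882 genes had the same sign in 67.7% and a Pearson correlation of 0.53.

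**Figure D4:**
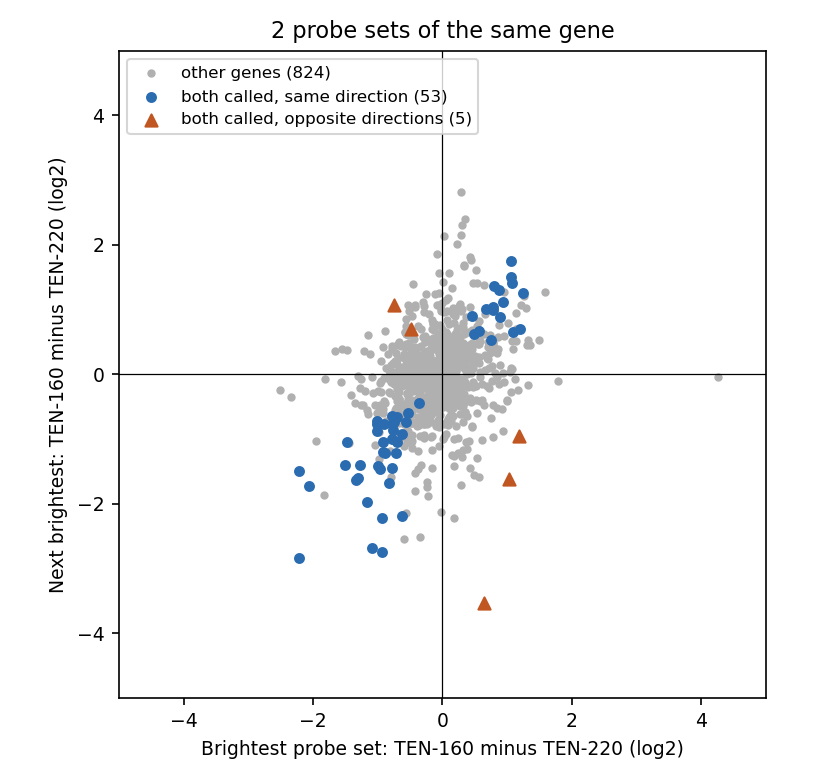
Change of the brightest against the next brightest probe set of 882 genes, both as TEN-160 minus TEN-220 on the log2 scale. In 53 genes both were called in the same direction and in 5 (triangles) in opposite directions, and the point at a change of 4.26 on the horizontal axis and near 0 on the vertical one is Kctd13.

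Where probe sets of a gene disagreed, the calls could rest on widely separated values on both sides. Idh1, the cytosolic isocitrate dehydrogenase that makes NADPH, gave 5128, 4936 and 5161 on the TEN-220 arrays and 7815, 7562 and 8310 on the TEN-160 arrays on its brighter probe set and rose by 0.64 log2 units (SE 0.12, adjusted p = 0.00253). Its dimmer probe set gave 275.1, 313.1 and 198.5 on the TEN-220 arrays and 17.02, 34.26 and 18.95 on the TEN-160 arrays and fell by 3.53 log2 units (SE 0.42, adjusted p = 0.000211), at least 5.85-fold against background. Both sides were without overlap. Anp32a, a nuclear protein that binds histones, gave 269.6, 249.5 and 317 on the TEN-220 arrays and 516.9, 717.2 and 675.8 on the TEN-160 arrays on one probe set and rose by 1.19 log2 units (SE 0.26, adjusted p = 0.00745), and 187.1, 152.4 and 162.7 on the TEN-220 arrays and 86.86, 98.49 and 74.85 on the TEN-160 arrays on the other and fell by 0.95 log2 units (SE 0.20, adjusted p = 0.00668). These were the 2 of the 10 genes whose opposite calls held without each array. Rpl21 had 4 probe sets called, with changes of 1.01, -1.19 and -2.51 on 3 of them, the first lost with median-centred values. The brightest one rose by 0.68 log2 units (SE 0.20, adjusted p = 0.0287), a call lost with median-centred values and without TEN-220-1, TEN-220-2, TEN-220-3, TEN-160-2 or TEN-160-3 (adjusted p up to 0.0889, changes of 0.62 to 0.77). Cp, the copper carrier ceruloplasmin, rose by 1.67 log2 units (SE 0.34, adjusted p = 0.00549) on its second probe set by brightness. The brightest differed by 0.33, not called. The third fell by 0.82 log2 units (SE 0.21, adjusted p = 0.0174), a call lost without TEN-220-2 or TEN-220-3 (adjusted p up to 0.0582, changes of -0.89 to -0.78).

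The most extreme case was chosen after its values were seen. Kctd13, an adaptor of a ubiquitin ligase, had 3 tested probe sets. The brightest gave 249.2, 303 and 148.3 on the TEN-220 arrays and 3288, 4050 and 5854 on the TEN-160 arrays and rose by 4.26 log2 units (SE 0.61, adjusted p = 0.00057), the largest rise of a probe set that names 1 gene. It read 3532, 357.1 and 872.2 on the EtOH-220 arrays, so that EtOH-220-1 and EtOH-220-3 were high, as they were on the probe sets paired with ribosomal RNA. The other 2 Kctd13 probe sets differed by -0.04 (SE 0.27, adjusted p = 0.929) and -0.28 (SE 0.50, adjusted p = 0.742), with overlap. Ptms, parathymosin, had the lowest fitted change, but its rank is not known since the TEN-160 arrays were below background. One of its 3 probe sets gave 401.1, 253.9 and 711.6 on the TEN-220 arrays and 13.67, 21.12 and 18.22 on the TEN-160 arrays and fell by 4.58 log2 units (SE 0.48, adjusted p = 0.000142), at least 9.47-fold against background. The others overlapped, with changes of -0.67 (SE 0.23, adjusted p = 0.0598) and -0.38 (SE 0.34, adjusted p = 0.487).

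Genes with a single tested probe set have no second reading of their change. Rapgef4, a cAMP-activated exchange factor, gave 53.82, 106.7 and 78.62 on the TEN-220 arrays and 417, 508.9 and 462.8 on the TEN-160 arrays and rose by 2.59 log2 units (SE 0.30, adjusted p = 0.000205). Evi5, a regulator of Rab proteins, gave 53.82, 73.98 and 69.87 on the TEN-220 arrays and 467.3, 313.6 and 252.3 on the TEN-160 arrays and rose by 2.35 log2 units (SE 0.27, adjusted p = 0.000205). Bet1, which works in transport from the endoplasmic reticulum to the Golgi, gave 37.25, 52.59 and 60.89 on the TEN-220 arrays and 311.6, 206.4 and 304.8 on the TEN-160 arrays and rose by 2.45 log2 units (SE 0.37, adjusted p = 0.000824). Sirt2, a NAD-dependent deacetylase, fell, with 654.9, 602.4 and 790.4 on the TEN-220 arrays and 114.1, 122.2 and 73.22 on the TEN-160 arrays and a change of -2.75 (SE 0.28, adjusted p = 0.000119). Ube2g2, a ubiquitin-conjugating enzyme, gave 266.7, 363.1 and 274.4 on the TEN-220 arrays and 82.74, 41.1 and 47.29 on the TEN-160 arrays and fell by 2.46 log2 units (SE 0.32, adjusted p = 0.000303). Pdpk1, the kinase that activates Akt in insulin signalling, was at the floor of 9.238 on all 3 TEN-160 arrays and 177, 148.7 and 106.5 on the TEN-220 arrays, a fall of at least 3.2-fold against background, with a change of -3.93 (SE 0.27, adjusted p = 5.65e-06). The 3 equal floor values add no spread to the fit, so this SE and p may be too small. In none of these 6 genes did the groups overlap.

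Of 21 measured genes of oxidative stress defence 2 were called higher and 2 lower (4 of 21, beside 16.2% of all genes). Each count was 1 without any 1 TEN-220 array, TEN-160-1 or TEN-160-2, the higher count was also 1 without EtOH-220-2 or EtOH-160-1, and 4 were called lower without TEN-160-3. Sod2, the mitochondrial superoxide dismutase, gave 183.9, 208.3 and 209.8 on the TEN-220 arrays and 330.0, 407.1 and 319 on the TEN-160 arrays and rose by 0.81 log2 units (SE 0.19, adjusted p = 0.0105), while Sod3, the secreted form, gave 372.2, 417 and 408.3 on the TEN-220 arrays and 208.9, 203.4 and 135.9 on the TEN-160 arrays and fell by 1.15 log2 units (SE 0.26, adjusted p = 0.00848). Uqcrc2, a core protein of complex III, rose by 1.25 log2 units (SE 0.25, adjusted p = 0.00411), and Cox5a, a subunit of cytochrome oxidase, fell by 1.59 log2 units (SE 0.22, adjusted p = 0.000495). Of 38 measured genes of oxidative phosphorylation 1 was called higher and 2 lower, or 7.89%, beside 16.2% of all genes, and 4 were called higher without TEN-160-3 and 3 without EtOH-220-1. Cyp2d2, a drug-metabolising P450, gave 21180, 21990 and 21620 on the TEN-220 arrays and 14070, 15840 and 14070 on the TEN-160 arrays and fell by 0.56 log2 units (SE 0.10, adjusted p = 0.00198), a call lost with the trimmed-mean scaling. Nr2f6, an orphan nuclear receptor and 1 of 5 liver-enriched transcription factors called lower of 24 (20.8%, beside 9.74% of all genes; 0 higher), fell by 0.85 log2 units (SE 0.17, adjusted p = 0.00461). That count was 3 without TEN-220-1 or TEN-220-3.

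The summed signal of 12 Kupffer cell and macrophage markers ranged from 11560 to 13260 on the TEN-220 arrays and from 12460 to 14310 on the TEN-160 arrays, and that of 11 endothelial markers 1836 to 2163 and 2013 to 2462, so that both ranges overlapped. Of 9 tested endothelial markers 2 were called higher and 0 lower (22.2%, beside 16.2% of all genes), with 6 positive and 3 negative changes. Kdr, the receptor for vascular endothelial growth factor on endothelial cells, gave 86.23, 85.42 and 104.3 on the TEN-220 arrays and 207.3, 256.7 and 365 on the TEN-160 arrays and rose by 1.55 log2 units (SE 0.37, adjusted p = 0.0113). The 16 stellate cell and fibroblast markers summed to 15660 to 19580 on the TEN-220 arrays and 18030 to 20030 on the TEN-160 arrays, and 9 of 12 tested had positive changes, with a median of 0.22. The 1 called (8.33%, beside 16.2% of all genes) was lower. Bgn, a matrix proteoglycan of stellate cells and fibroblasts, gave 1485, 1421 and 1664 on the TEN-220 arrays and 752.4, 862.3 and 840.8 on the TEN-160 arrays on the brighter of 2 probe sets and fell by 0.90 log2 units (SE 0.21, adjusted p = 0.00961), and the dimmer differed by -0.44, not called.

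The same reduction in energy was also made in ethanol-fed rats, and EtOH-160 minus EtOH-220 shares no array with the comparison above. There 15 probe sets were called (0.286%), between 0 and 52 as single arrays were left out, with 0 without EtOH-160-3 or EtOH-160-4 and 52 without EtOH-160-1. An unadjusted p under 0.01 was reached by 208 (3.97%). Of the 927 probe sets called without ethanol, 472 (50.9%, exact binomial 95% interval 47.6 to 54.2, for counting error only) had the same sign with ethanol, beside 49.4% of all tested. Their Pearson correlation was 0.09 across probe sets, which are not independent. An unadjusted p under 0.01 with ethanol was reached by 6.69% of the 927, 45 in the same direction and 17 in the opposite one. The difference between the 2 energy effects, tested as an interaction that contains the TEN-160 and TEN-220 arrays, was called in 370 probe sets (7.06%), but in 126 without TEN-220-1 and 180 without TEN-220-2. Of the 927 it was called in 333, but these 927 were picked by the change without ethanol, which is part of the interaction.

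Called in both comparisons and in the same direction were 7 probe sets, 3 of which name 1 gene, and 1 probe set was called in opposite directions. The metallothionein probe sets were 2 of the 7. They differed by 3.95 and 2.73 with ethanol (adjusted p = 0.0159 and 0.00934), beside 4.14 and 2.70 without. Nr1d2 differed by 2.81 with ethanol (adjusted p = 0.0159) and 2.94 without. Actg1 differed by -1.40 (adjusted p = 0.00934) and -1.23, and Klf9 by 1.30 (adjusted p = 0.0159) and 0.73. The calls with ethanol rest on single arrays as given above. Pnpla3 differed by -2.13 with ethanol, where the adjusted p was 0.0912.

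For several metabolic genes the difference between the 2 energy effects was itself called. Fasn differed by 0.11 and 0.59 with ethanol, beside -2.21 and -2.83 without, and the differences were 2.32 and 3.42 (adjusted p = 0.00686 and 0.00206). Khk differed by 0.10 beside -1.16 (adjusted p of the difference = 0.00754), and Igfbp3 on its brighter probe set by 0.33 beside -1.47 (adjusted p = 0.00206). Cebpb on its brighter probe set differed by 0.20 beside -1.17 (adjusted p = 0.00255). Igfbp1 differed by 0.26 beside 3.16 (adjusted p = 0.0453). It gave 809.7, 1385 and 247.4 on the EtOH-220 arrays and 412.3, 793.3, 1052 and 1093 on the EtOH-160 arrays. EtOH-220-1 and EtOH-220-2 thus lay above every TEN-220 array, at 87.73, 290.7 and 257. For Cpt1a, 0.66 beside 2.07, and Pck1, 0.97 beside 2.48, the difference was not called (adjusted p = 0.0627 and 0.304). Slc10a1 and Slco1a4 differed by 0.61 and 1.10 with ethanol, in the direction of their rises of 1.18 and 1.32, and neither was called there (adjusted p = 0.154 and 0.11).

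**Figure D5:**
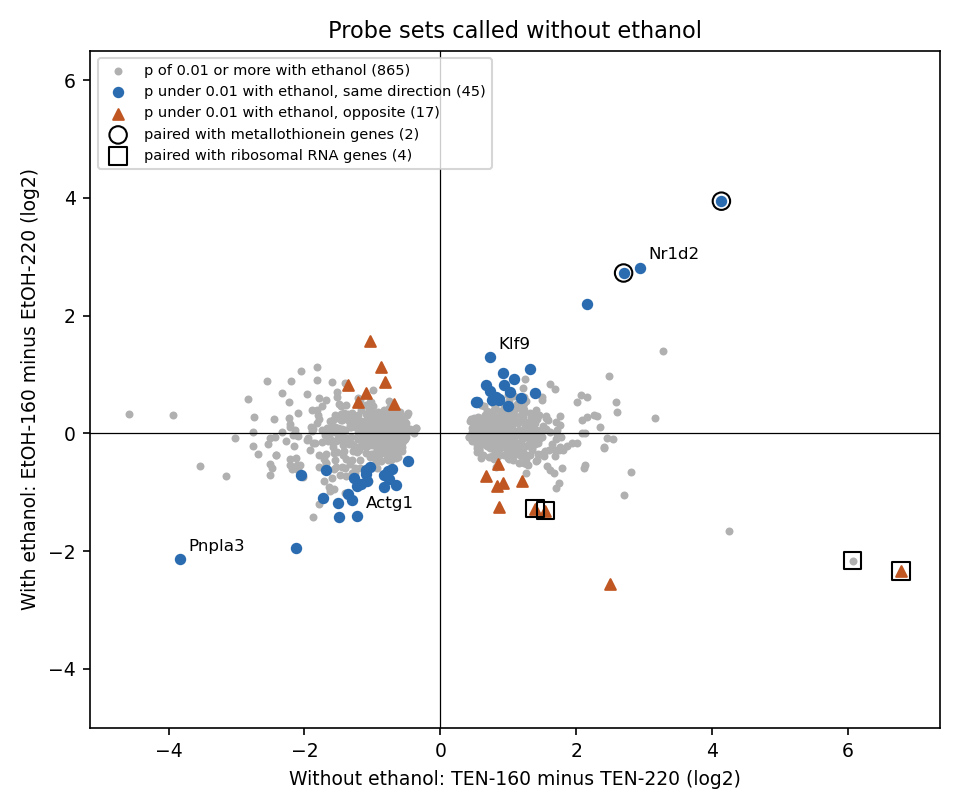
Change with ethanol (EtOH-160 minus EtOH-220) against change without ethanol (TEN-160 minus TEN-220), log2, for the 927 probe sets called without ethanol. Of these, 45 (larger round points) reached an unadjusted p under 0.01 with ethanol in the same direction and 17 (triangles) in the opposite one, circles mark the 2 metallothionein probe sets and squares the 4 called probe sets paired with ribosomal RNA. The points form no diagonal, with the metallothionein probe sets and Nr1d2 at the upper right.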

How the data were processed

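RNA of 13 rat liver samples was measured on 1 array each. The deposited signal intensities were computed by the authors with MAS5, per the submitters' processing notes, and no other step is given in the sources used here. The values were quantile normalized over the 13 arrays, which brings TEN-220-1 to the scale of the others, then floored at the 10th percentile of all signals (9.238) and log2 transformed. After 59 control probe sets were removed, the brightest 60% by mean were kept, 5244 of 8740. Group means were fitted in limma 3.58.1 (R 4.3.3) over all 4 groups, with a variance trend and Benjamini-Hochberg adjustment over all probe sets tested, and a call is an adjusted p under 0.05. Signals are normalized intensities. Background, 44.0, is the 95th percentile over 19 control probe sets whose targets rat RNA lacks. Where a group's mean lay below it, the fold is a lower bound against it. The number of arrays limits the precision.

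Gene names are from the array annotation, updated through Entrez IDs for 4297 of 4309 probe sets. A list counts a gene by its brightest probe set over the 13 arrays. Genes were named by a rule: up to 15 agreeing genes in each direction, up to 8 disagreeing genes, 2 to 4 called genes of each list, 30 set genes, and up to 10 genes with a single probe set in each direction. Of the 30 set genes 8 had no probe set that names them alone, and 1 was not tested. The members and lists were chosen with earlier results of these data known. In simulated data with 200 of 5244 probe sets changed, the fit recovered 18% of changes by a factor of 1.5, 62% by 2, 96% by 4 and 100% by 8, and 6 of its 144 calls were false. The simulated noise was independent between probe sets, with no differences between whole arrays like those described above. Its false calls therefore do not measure those of the real comparison. The alternatives were other scalings, floors, filters, variance models, thresholds, a fit of the compared groups alone, a replicate block and each array left out. A floor at 1 gave the same 927 calls, so it was no separate check.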

Additional observations from a re-analysis of the deposited data

Results flagged for a closer look

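For 158 probe sets, those of the genes chosen by the naming rule and those chosen after their values were seen, it was tested whether the effect of energy supply with ethanol (EtOH-160 minus EtOH-220) differed from that without (TEN-160 minus TEN-220). This interaction was called in 63 probe sets, for 51 genes and 6 probe sets paired with several genes, beside 7.06% of all probe sets tested. Many of the 158 were picked by their change without ethanol, which is part of the interaction. The count and the signs therefore follow in part from the choice. The values below are the effect with ethanol minus the effect without, log2. All include the TEN-160 arrays, which stand apart from the others in the BioDn ratio and on the first principal component, and over all probe sets the 370 interaction calls became 126 without TEN-220-1. A difference of effects does not show which of the 4 groups stands apart. The dimmer Cth probe set, for example, averaged 2484 in TEN-220, 5093 in TEN-160, 5181 in EtOH-220 and 4156 in EtOH-160.

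The value was positive in 34 probe sets. TEN-160 was below background in those of Pdpk1, Ptms and Afp and the dimmer one of Idh1, so that their sizes depend on values with no order. Among genes of fat and sugar use it was 3.42 and 2.32 for the probe sets of Fasn, 1.87 for Acly, 1.87 for Scd, 2.94 for the probe set paired with stearoyl-CoA desaturase genes, 1.35 for Plin2, 2.42 for Mgll, 1.25 for Khk, 1.71 for Pfkl, 1.11 for Sord and 2.97 for the dimmer probe set of Idh1. Among regulators and signalling genes it was 2.65 and 1.37 for Cebpb, 0.85 for Nr2f6, 4.24 for Pdpk1, 2.77 for Sirt2, 0.86 for Map2k2, a kinase of the growth factor cascade, and 1.03 for Anp32a. Among secreted and membrane proteins it was 1.8 for Igfbp3, 2.34 for Afp, 0.65 for Apoc3, 1.16 for Bgn, and 2.55 and 0.96 for Slc4a2. The other positive values were 1.37 for Cox5a, 0.61 for Cyp2d2, 0.86 for Haao, 4.91 for Ptms, 1.45 and 0.94 for Ptov1, 1.53 for Rpl17, 0.96 for Rpl21, 1.06 for Rps24 and 2.7 for Ube2g2.

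The value was negative in 29 probe sets. Among secreted proteins and transport genes it was -2.9 for Igfbp1, -2.64 for Serpina7, -1.29 for Mbl1, -2.33 for Cp, -1.4 for Azgp1, a zinc-binding glycoprotein of plasma, -1.15 for Selenop, -2.52 for Bet1 and -1.28 for Canx. Among enzymes it was -1.41 and -0.95 for Cyp2c12, -2.08 for Ces1d, -1.35 for Cth, -1.26 for Gsta4, -1.0 for Sod2, -1.47 for Uqcrc2 and -0.82 for the brighter probe set of Idh1. Among regulators it was -2.11 for a probe set of Bmal1, a core clock factor, -1.12 for Hlf, -2.05 for Rapgef4 and -2.25 for Evi5. The remaining values were -1.04 for Eef1a1, an elongation factor of translation, -1.22 for Rpl41, -0.76 for Rps6 and -5.91 for Kctd13. In the probe sets paired with ribosomal RNA genes the values were -9.12, -8.23, -3.58, -2.86 and -2.67.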

How the results depend on the processing

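The 927 calls became 346 on values as deposited, 387 at an adjusted p under 0.01, 467 with a change of at least 1, and 528 to 1061 without 1 array. The 370 interaction calls became 558 on median-centred values, 65 as deposited, 82 at 0.01, and 126 to 346 without 1 array. The 15 calls with ethanol became 0 with no filter, 7 in a fit of the compared groups alone, 3 with the replicate block, 5 at 0.01, and 0 to 52 without 1 array. The 42 genes called throughout became 9 as deposited, 13 at 0.01, 13 with a change of at least 1, and 20 to 47 without 1 array. The 10 genes with opposite calls became 1 as deposited, 20 with array weights, 3 at 0.01, 2 with a change of at least 1, and 3 to 16 without 1 array. The same-sign share of probe set pairs, 62.2%, became 66.1% median-centred, 81.0% as deposited, 58.4% with no filter, and 60.6% to 63.5% without 1 array. The share with the same sign with ethanol, 50.9%, became 45.5% median-centred, 44.2% as deposited, 57.5% with array weights, and 46.9% to 59.3% without 1 array. The causes were not tested. The split of calls, 410 higher and 517 lower, was 263 and 833 median-centred, 478 and 480 with the trimmed-mean scaling and 328 and 18 as deposited, with median changes of all probe sets of -0.16, 0.07 and 0.70.

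Of 123 called probe sets followed, 94 kept their call without each of the 13 arrays, and 22 lost it without TEN-220-1. Their calls were kept in 108 on median-centred values, 119 with the trimmed-mean scaling and 55 as deposited. There 3 changed sign, Cyp2d2 at 0.35, Apoc3 at 0.25 and Rbp4 at 0.35. Array numbers gave no clear sign of paired samples, though these values cannot exclude a pairing. Correlations were -0.01, 0.03 and 0.06 between same-numbered arrays and -0.06 to 0.04 between the others. A fit with the replicate block called 875 probe sets, 815 of them among the 927. Only 8.96% of the dimmest of 5 equal classes of probe sets were called, where the median SE was 0.37, and 45 called probe sets lay below background in TEN-160 and 8 in TEN-220.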
